A study of Homo sapiens with 28 samples.

Results

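The proteasome is the protease complex that breaks down most ubiquitin-tagged proteins in the cell. The genes described here are its subunits, inducible variants, activators, one inhibitor and assembly chaperones, taken as every protein-coding gene whose symbol reads PSMA, PSMB, PSMC, PSMD, PSME, PSMF or PSMG followed by digits. This gave 48 genes of 19821 protein-coding genes. A gene was counted for a peak list when that list had a peak no more than 1 kb from one of the gene's RefSeq ends.

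In the proteasome, alpha subunits form the outer rings and gate of the core particle, beta subunits form its inner rings and carry the proteolytic sites, and the regulatory particle on top recognises, unfolds and feeds in ubiquitinated substrates. Its base holds the ATPases and scaffold proteins, and its lid holds the deubiquitinase. Most subunit genes are active in every tissue, and they are known to be raised together by the factor NFE2L1 when proteasome activity falls short.

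Chromatin immunoprecipitation followed by sequencing had been carried out in T47D cells, a long-established line from a luminal breast carcinoma. ZHX2 (a zinc finger and homeobox protein), CTCF (a DNA-binding protein of loop anchors and insulators) and H3K27ac (acetylated lysine 27 of histone H3, a mark of active promoters and enhancers) were each precipitated from cells in normoxia and from cells in hypoxia. Flag was precipitated in hypoxia only, from cells with ZHX2 in a form labelled WT and from cells with a mutant form labelled PA. Each of these 8 groups had 2 samples and 1 deposited peak list, so a condition is 1 list, no value has a spread between replicates, and no difference between conditions could be tested.

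The oxygen level, the length of the hypoxia, the mutated positions of PA, the promoter that drove the tagged forms and whether the cells kept their own ZHX2 are not stated in the sources at hand. The protocols mention lentiviral infection and antibiotic selection of T47D cells. The lists held 32343 ZHX2 peaks in hypoxia and 14586 in normoxia, 77334 and 88248 CTCF peaks, 46713 and 42586 H3K27ac peaks, and 31278 WT and 16019 PA Flag peaks. Since lists of a pair differ in length, each count of proteasome genes is read beside the share of all protein-coding genes counted the same way. The cell label was checked with H3K27ac: 7 of 7 luminal genes (ESR1, GATA3, FOXA1, KRT8, KRT18, KRT19 and PGR) had a peak at an end in both conditions, against 0 of 3 basal genes, 1 of 4 leukocyte genes (CD3E) and 1 of 3 stromal genes (COL1A1).

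Promoter sequences are shown for 4 genes, to set starts with a ZHX2 summit in the sequence beside starts without one. They are the 250 bases before the transcription start in the RefSeq promoter table (GRCh38.p14, all on the plus strand). PSMC6 (chr14:52706950-52707199) had the highest hypoxia ZHX2 fold among the genes whose summit fell in the window, and PSMA4 (chr15:78540155-78540404) had the highest among hypoxia-only peaks with a summit in the window. PSMB11 (chr14:23041962-23042211) had no ZHX2 peak within 1 kb of an end. PSMA6 (chr14:35292067-35292316) had none within 1 kb of an annotated end, but its sequence belongs to a start inside the gene, and a hypoxia-only ZHX2 peak (fold 2.61) had its summit 1139 bp before that start and reached to less than 1 kb from it. Capitals mark matches, on either strand, to any of the 9 motifs spelled out further on.

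PSMC6: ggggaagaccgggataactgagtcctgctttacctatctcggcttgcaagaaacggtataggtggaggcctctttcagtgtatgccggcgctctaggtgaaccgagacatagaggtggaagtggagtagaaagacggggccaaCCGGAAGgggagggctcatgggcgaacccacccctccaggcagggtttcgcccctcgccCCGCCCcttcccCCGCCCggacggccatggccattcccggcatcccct

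PSMA4: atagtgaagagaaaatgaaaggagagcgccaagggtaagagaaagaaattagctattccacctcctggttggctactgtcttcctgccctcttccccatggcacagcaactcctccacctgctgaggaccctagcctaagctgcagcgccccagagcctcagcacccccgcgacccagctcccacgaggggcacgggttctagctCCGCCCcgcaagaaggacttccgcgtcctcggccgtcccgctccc

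PSMB11: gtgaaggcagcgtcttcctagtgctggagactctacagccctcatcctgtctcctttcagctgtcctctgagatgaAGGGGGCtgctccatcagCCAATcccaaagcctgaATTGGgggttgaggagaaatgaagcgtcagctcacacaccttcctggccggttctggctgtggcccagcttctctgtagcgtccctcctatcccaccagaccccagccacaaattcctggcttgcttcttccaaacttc

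PSMA6: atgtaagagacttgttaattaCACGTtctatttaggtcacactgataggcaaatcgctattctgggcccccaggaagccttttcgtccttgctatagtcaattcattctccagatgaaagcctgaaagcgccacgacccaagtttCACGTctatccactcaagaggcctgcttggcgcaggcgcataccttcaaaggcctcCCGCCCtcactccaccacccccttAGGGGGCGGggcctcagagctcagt

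The ZHX2 summit in hypoxia lay at base 233 of the PSMC6 sequence, between its SP1 matches and the start, and at base 199 of the PSMA4 sequence, just before its SP1 match. In PSMC6 the capitals are an ETS match at bases 144 to 150 and SP1 matches at bases 203 to 208 and 215 to 220. In PSMB11 they are the CTCF part at bases 77 to 83 and NF-Y matches at bases 95 to 99 and 112 to 116. In PSMA6 they are the core of the hypoxia response element at bases 22 to 26 and 146 to 150, SP1 at bases 202 to 207, and an overlapping CTCF part and SP1 match between bases 226 and 234.

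ZHX2 in hypoxia lay at the ends of 32 of the 48 proteasome genes, 66.7% against 56.3% of all protein-coding genes. In normoxia it lay at 20, 41.7% against 29.7%. Both shares were above those of all genes, although in the upper 50% of the lists the normoxia order reversed (6 genes, 12.5% against 19.2%), and most proteasome genes also carry H3K27ac. Among the 42 proteasome genes with a normoxia H3K27ac peak, 76.2% had ZHX2 in hypoxia, against 80.7% of all protein-coding genes with that mark, and 45.2% against 41.2% had it in normoxia. The shares of proteasome genes were thus close to those of all acetylated genes in both conditions, and the differences were not tested.

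**Figure D1:**
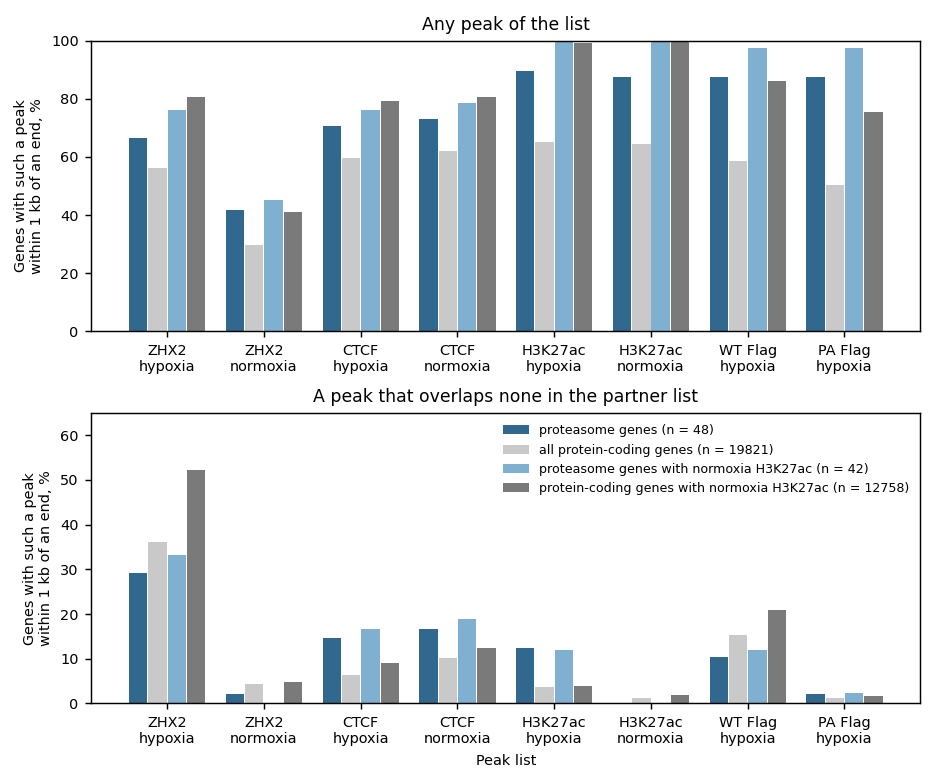
Bars show the percentage of genes with a peak within 1 kb of either end (y axis, %) in each of the 8 peak lists (x axis), for proteasome genes and all protein-coding genes, and for the genes of each with a normoxia H3K27ac peak; the lower panel counts only peaks with no overlap in the partner list. Proteasome genes reach 66.7% for ZHX2 in hypoxia and 87.5% for both Flag lists, while hypoxia-only ZHX2 peaks reach 29.2% of them against 36.2% of all genes.

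Both ZHX2 lists held a peak at 19 proteasome genes, 39.6% against 27.8% of all genes. A peak in hypoxia alone was found at 13, 27.1% against 28.4%, and in normoxia alone at PSMG4, 2.08% against 1.85%. Counted by peaks, 14 genes had a hypoxia-only ZHX2 peak (no overlap with any normoxia ZHX2 peak), 29.2% against 36.2% of all genes and 33.3% against 52.3% of those with acetylation. The only gene with a normoxia-only peak was again PSMG4, 2.08% against 4.43%. The share with a hypoxia-only peak was thus below that of all genes as the lists stand. This order depends on the settings. Without peaks of a −log10 q under 5 the share was 39.6% of proteasome genes against 33.0% of all genes. In the upper 50% of the lists it was 41.7% against 27.9%. These cuts were made in both lists, so normoxia peaks under the cut no longer counted as overlap. Normoxia ZHX2 was left at 13 and 6 proteasome genes, from 20. The share was 43.8% against 39.4% with summits within 250 bp counted as shared, and 18.8% against 18.9% with lists of equal length.

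The strongest ZHX2 peak in hypoxia was at PSMD8, a lid subunit, at chr19:38374231-38375208. Its fold enrichment over background, as the authors' peak caller gave it, was 9.18, higher than 98.3% of the list. The normoxia list had its strongest proteasome peak at the same promoter, with a fold of 5.15, above 88.6% of that list. Folds of different lists were called separately and are set beside each other here without comparing them.

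PSMB5, which carries the chymotrypsin-like site and is the target of clinical proteasome inhibitors, came next in hypoxia at chr14:23034698-23035448, with a fold of 7.52 (above 96.8% of the list). The ATPase gene PSMC6, shown above, followed at chr14:52706993-52707423 with 6.5 (94.8%). PSMB6, which carries the caspase-like site, had 5.95 (92.8%) at chr17:4795871-4796322, and the lid gene PSMD13 had 5.6 (91.1%) at chr11:235886-236503, a region that is also an end of SIRT3. The normoxia list ranked PSMB5 and PSMC6 in the middle or below, with folds of 3.33 (above 49.2% of that list) and 2.96 (30.0%), and had no PSMB6 peak.

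PSMG3, a chaperone of core assembly, came after PSMD8 in normoxia, with a fold of 4.61 (83.5%) at chr7:1569958-1570262. PSMG1, another chaperone, had 4.23 (78.0%) at chr21:39183271-39184262, where BRWD1 also ends. The beta subunit gene PSMB1 had 3.89 (70.3%) at chr6:170553036-170553251, and PSMD13 and the chaperone gene PSMG2 both had 3.64 (62.3%).

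Proteasome peaks were nonetheless modest beside those of other genes. The median fold of the strongest peak per gene was 3.58 over the 32 proteasome genes with a hypoxia peak, against 3.97 over the 11154 protein-coding genes with one. In normoxia it was 3.08 over 20 genes against 3.64 over 5881.

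**Figure D2:**
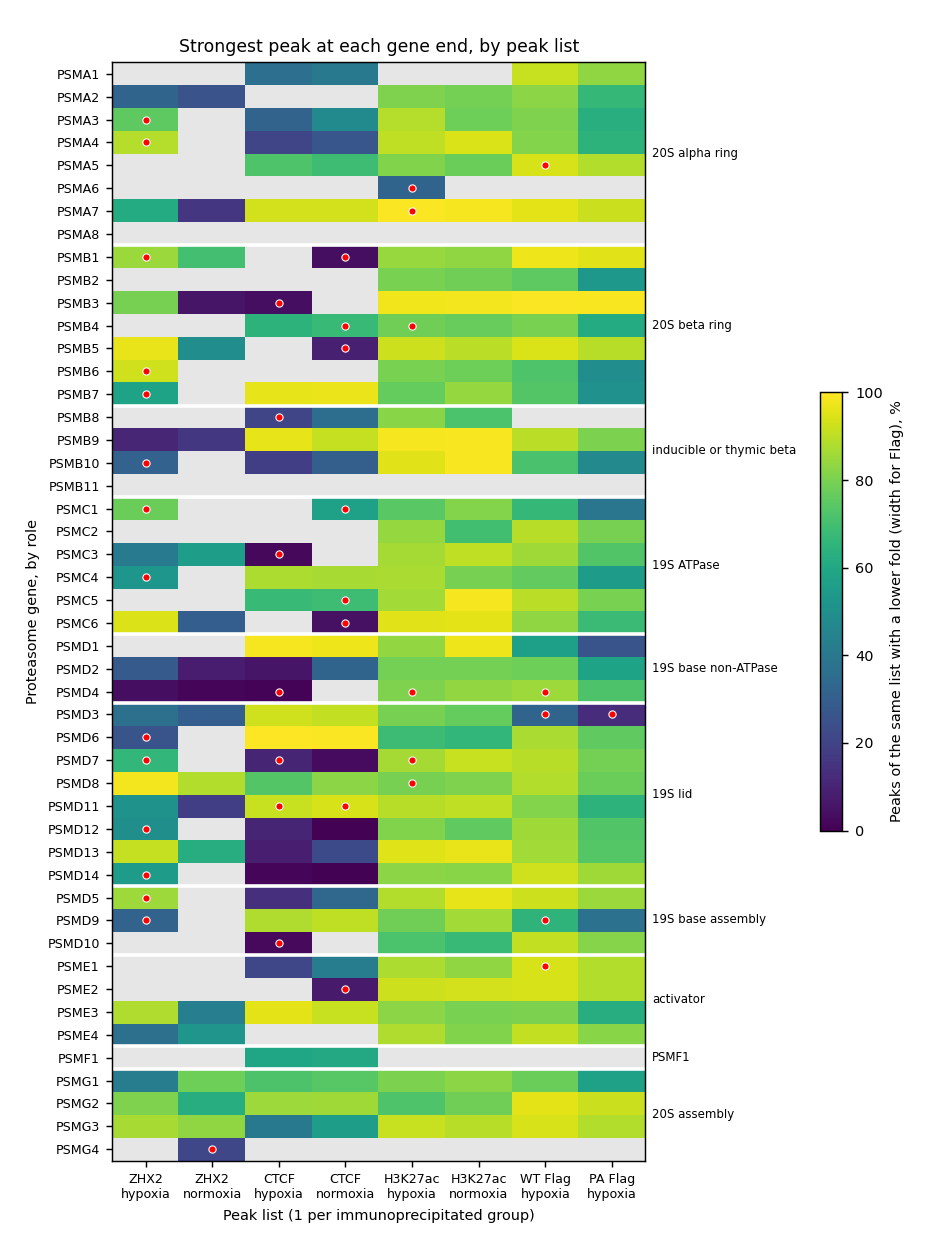
Rows are the 48 proteasome genes by role and columns the 8 peak lists; colour gives the percentage of peaks in the same list with a lower fold (lower width for Flag) than the strongest (widest) peak at the gene's ends, grey means no peak, and a red dot marks a gene with a peak that overlaps none in the partner list. All 8 lid genes are coloured in the hypoxia ZHX2, CTCF, H3K27ac and Flag columns, whereas PSMA8 and PSMB11 are grey throughout. Peaks in hypoxia ZHX2, CTCF, H3K27ac and WT Flag together lay at 52.1% of proteasome genes and 40.5% of all protein-coding genes. Among those with normoxia H3K27ac the shares were 59.5% and 62.7%.

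Among the hypoxia-only ZHX2 peaks, PSMB6 led with the fold given above. PSMA4, an alpha subunit, had 5.26 (above 89.0% of the list) at chr15:78540182-78540808 and a further hypoxia-only peak of 3.41 past its other end. PSMD5, a chaperone of base assembly, had 4.87 (85.4%) at chr9:120842592-120843537. The ATPase gene PSMC1 had 4.27 (77.5%) at chr14:90256356-90256954, and PSMA3, an alpha subunit, had 4.16 (75.3%) at chr14:58244250-58244812. The other genes of the class were PSMD14, which encodes the deubiquitinase of the lid, the lid genes PSMD6, PSMD7 and PSMD12, the ATPase gene PSMC4, the base chaperone gene PSMD9, PSMB7 with the trypsin-like site, the inducible PSMB10, and PSMB1.

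The 15 hypoxia-only peaks at these genes had folds of 2.81 to 5.95 with a median of 3.44. The 20 hypoxia peaks that overlapped a normoxia peak had 2.19 to 9.18 with a median of 3.5, so within the hypoxia list both kinds covered much the same range of folds. PSMB1 differs from the rest of its class in that its stronger peak (4.84) overlaps a normoxia peak and the hypoxia-only one (2.81), about 1 kb out towards TBP, is a second peak. The lone normoxia-only peak, at PSMG4, had a fold of 2.8 at chr6:3253457-3253808, higher than 21.2% of the normoxia list.

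By role, 8 of 8 lid genes (PSMD3, PSMD6, PSMD7, PSMD8, PSMD11, PSMD12, PSMD13 and PSMD14) had ZHX2 in hypoxia and 4 of 8 in normoxia, the other 4 being PSMD6, PSMD7, PSMD12 and PSMD14. All 8 carry normoxia H3K27ac. ZHX2 lay at 56.3% of all protein-coding genes in hypoxia and 29.7% in normoxia, and at 80.7% and 41.2% of those with that mark. Beside these shares the role groups are small, and differences between them were not tested. The constitutive beta genes had ZHX2 at 5 of 7 in hypoxia and 3 of 7 in normoxia, and the ATPase genes at 4 of 6 and 2 of 6. The alpha genes had it at 4 of 8 and 2 of 8, with PSMA2 and PSMA7 in both lists. The scaffold and receptor genes of the base had it at 2 of 3 in both lists, PSMD2 and the ubiquitin receptor gene PSMD4 but not PSMD1. PSMD5 and PSMD9 but not PSMD10 had it among the base chaperones, in hypoxia only, and the core assembly chaperones had it at 3 of 4 in hypoxia and 4 of 4 in normoxia.

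The inducible genes and activators were split. PSMB9, the inducible beta subunit gene that shares its promoter with TAP1, a transporter of antigenic peptides, had weak ZHX2 peaks in both lists, with folds of 2.47 and 2.67. PSMB10 had a hypoxia-only peak of 2.93 at chr16:67935462-67935781, 956 bp inside the gene from its far end. PSMB8 had none. Its nearest hypoxia ZHX2 peak lay 1767 bp from an end, just outside the window. Of the activators, PSME3 (fold 5.14 in hypoxia and 3.2 in normoxia) and PSME4 (3.05 and 3.4) had ZHX2 in both lists, whereas the interferon-inducible PSME1 and PSME2 had none in either.

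Some acetylated genes lacked ZHX2, as some do among all genes. In hypoxia it lay at 32 of 42 proteasome genes with normoxia H3K27ac (76.2%), against 80.7% of all such genes. The 10 genes with H3K27ac at an end in both conditions and no ZHX2 peak in hypoxia were PSMA5, PSMB2, PSMB4, PSMB8, PSMC2, PSMC5, PSMD1, PSMD10, PSME1 and PSME2. At PSMB2, a beta subunit gene, the nearest ZHX2 peak was 24516 bp away in hypoxia and 24983 bp in normoxia, although H3K27ac peaks of fold 11.5 and 12.8 covered its start. PSMC2 and the neighbours PSME1 and PSME2 had hypoxia-only ZHX2 peaks outside the window, with folds of 4.1 and 3.69.

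ZHX2 lay mostly at the end where transcription starts, as it did over all genes. Of the 42 genes with a strand in the promoter table, 25 had hypoxia ZHX2 peaks at that end (59.5% against 55.3% of all such genes) and 2 at the far end (PSMA4 and PSMB10, 4.76% against 7.11%). In normoxia these counts were 16 (38.1% against 27.4%) and 0 (against 4.4%). The median distance from the summit to the end was 151 bp in hypoxia (26 peaks) and 110 bp in normoxia (17 peaks). All of the 5 highest-ranked hypoxia peaks lay at a start where the table gives one, PSMC6 with its summit 18 bp before it and PSMB5 with its summit 89 bp after it.

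**Figure D3:**
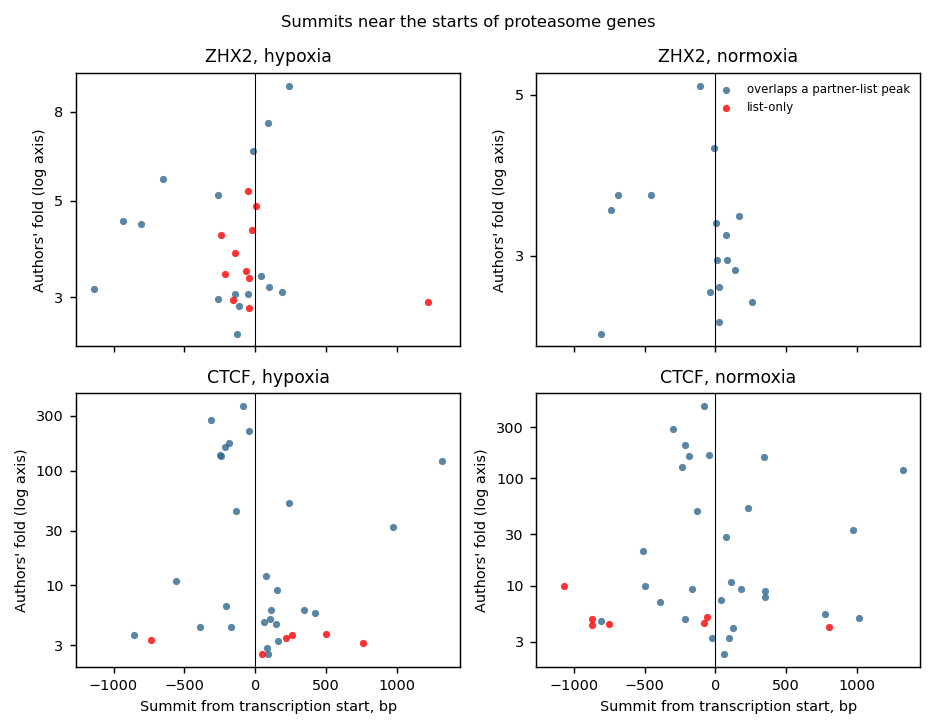
Each point is a ZHX2 or CTCF peak counted within 1 kb of a proteasome gene end, with its summit within 1.5 kb of the promoter-table start. The x axis is the distance of the summit from that start in bp (negative is upstream) and the y axis the authors' fold on a log axis. Red marks peaks with no overlap in the partner list. The 6 genes without a table start, among them PSMB6 (hypoxia-only ZHX2 fold 5.95), and ZHX2 peaks at the inner start of PSMA1 are not shown. Hypoxia-only ZHX2 summits lie mostly within 250 bp of the start at folds up to 5.26, and condition-only CTCF peaks lie at folds up to 9.96.

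The ZHX2 peaks lay in acetylated chromatin that was also bound in the Flag experiment. Of the 35 hypoxia ZHX2 peaks at proteasome gene ends, 34 overlapped hypoxia H3K27ac, 97.1% against 89.5% of ZHX2 peaks at all gene ends. WT Flag overlapped 34 (97.1% against 80.4%), PA Flag 33 (94.3% against 70.9%) and hypoxia CTCF 21 (60.0% against 68.8%). The exception for H3K27ac and Flag was the second PSMA4 peak, past the far end, and PSMD3 was the further exception for PA. Of the 21 normoxia peaks, 20 overlapped H3K27ac and 13 overlapped CTCF (61.9% against 67.3%). ZHX2 peaks that overlapped CTCF had their summits a median of 138 bp from the CTCF summit in hypoxia (15 to 1446 bp, 21 peaks) and 106 bp in normoxia (10 to 1097 bp, 13 peaks). The medians at all gene ends were 163 and 186 bp.

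Flag-tagged ZHX2 was called at 42 of the 48 genes with the WT form, 87.5% against 58.5% of all protein-coding genes, and at the same 42 genes with the PA form, 87.5% against 50.2%. Both lists together held these 42 genes, beside 49.7% of all genes. Among genes with normoxia H3K27ac, 97.6% of proteasome genes had Flag in both lists, against 86.3% (WT) and 75.4% (PA) of all genes. No proteasome gene had Flag in one form alone, where 8.79% of all genes had WT alone and 0.479% PA alone. Every one of the 32 genes with hypoxia ZHX2 also had WT Flag, which makes 66.7% of proteasome genes with both against 48.8% of all genes. The 6 genes without Flag at an end were PSMA6, PSMA8, PSMB8, PSMB11, PSMF1 and PSMG4.

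These lists have no peak heights, so only position and width can be described, and both lists of Flag peaks share most of their coordinates. Of 16019 PA peaks, 15163 (94.7%) had exactly the start and end of a WT peak, and at proteasome gene ends 43 of 44 did. The sources used here do not say how the lists came to share them, and whether a shared peak was equally strong in both forms was not tested.

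The widest Flag peaks were 5554 bp at the beta gene PSMB3 (above 99.4% of the WT list), 3784 bp at PSMB1, 3288 bp at PSMA7, 3267 bp at PSMG2 and 2996 bp at PSMB5, each with the same coordinates in the PA list. The median of the widest peak per gene was 2168 bp in both lists, beside 1824 bp for all genes with a WT peak and 1990 bp for all genes with a PA peak.

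A WT-only Flag peak was found at 5 genes, 10.4% against 15.2% of all genes. PSMA5 had one of 445 bp, PSMD4 of 257 bp and PSMD9 of 388 bp, each next to a larger peak shared by both forms. PSME1, the activator gene, had WT-only peaks of 276 and 990 bp on either side of a shared peak of 1979 bp.

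PSMD3, a lid gene, was the only one where the forms had no peak in common. The WT-only peak covered chr17:39980537-39981043, 507 bp that overlap the hypoxia ZHX2 peak at the start (fold 3.05). The PA-only peak covered chr17:39981201-39981840, 640 bp further into the gene, with no ZHX2 overlap. PSMD3 was thus also the only gene with a PA-only peak, 2.08% against 1.25% of all genes.

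H3K27ac marked nearly the whole family. A peak lay at the ends of 43 genes in hypoxia, 89.6% against 65.2% of all protein-coding genes, and at 42 in normoxia, 87.5% against 64.4%. All 42 were in both lists, 87.5% against 63.8%. PSMA6 alone had its mark in hypoxia only, 2.08% against 1.45%, and no gene had it in normoxia only, against 0.58% of all genes. Neither list had a peak at PSMA1, PSMA8, PSMB11, PSMF1 or PSMG4.

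The strength of the mark was ordinary for acetylated genes. The median fold of the strongest peak per gene was 13.0 in hypoxia and 14.6 in normoxia, beside 13.3 and 14.7 for all genes with a peak. PSMA7 had the highest hypoxia fold (27.5), PSMB10 the highest normoxia fold (29.3), followed by PSMB9 at 29.2. PSMB3 had the widest peak in both lists, 15480 and 15085 bp.

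Hypoxia-only H3K27ac peaks occurred at 6 genes, 12.5% against 3.71% of all genes, and normoxia-only peaks at 0, against 1.19%. All 6 were short and low, 213 to 661 bp with folds of 2.32 to 3.48, at most above 35.3% of their list. PSMD7 (3.48, 504 bp, chr16:74305345-74305848), PSMD8 (3.47, 661 bp) and PSMB4 (2.32, 535 bp) had theirs at the far end, away from the promoter. PSMD4 had one of 3.42 (213 bp), PSMA6 of 3.36 (592 bp) and PSMA7 of 2.36 (617 bp). Within 1 kb of the start given in the promoter table there were 0 such genes of 42, and in the upper 50% of the lists there were 0 of 48. The main promoter peaks of these genes were in both lists, for PSMA6 the one at the start inside the gene.

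CTCF lay at the ends of 34 genes in hypoxia, 70.8% against 59.6% of all protein-coding genes, and of 35 in normoxia, 72.9% against 61.9%. Among genes with normoxia H3K27ac the shares were 76.2% against 79.1% and 78.6% against 80.8%. Both lists held a peak at 30 genes, 62.5% against 56.7%, but 66.7% against 75.3% among genes with normoxia H3K27ac. CTCF was called at 8 of 8 lid genes, in both conditions, and at 3 of 7 (hypoxia) and 4 of 7 (normoxia) constitutive beta genes.

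The strongest CTCF peak in both lists was at the start of the lid gene PSMD6, with a fold of 368 (above 99.7% of the hypoxia list) at chr3:64023132-64024326 and of 476 (99.6%) in normoxia. PSMD1, the largest scaffold subunit gene of the base, followed with 275 (98.5%) and 291 (97.5%). PSMB7 had 219 (96.3%) and 269 (96.9%), and the promoter shared by PSMB9 and TAP1 had 221 (96.4%) and 166 (91.1%). PSME3 had 210 (95.8%) in hypoxia, at its far end where AOC2 lies. In normoxia PSMD11 (205, above 94.1%) and PSMA7 (193, 93.3%) completed the first 5. PSMD6 had a ZHX2 fold of 2.83 in hypoxia, above 26.0% of that list, and PSMD1 had no ZHX2 peak. Of the 5 genes with the highest ZHX2 folds in hypoxia, PSMD8 had 2 CTCF peaks there. The CTCF peak that overlaps its ZHX2 peak at the start had a fold of 12.1. Its other CTCF peak had 70.8 (above 73.4% of the list). PSMD13 had a CTCF fold of 4.35, and PSMB5, PSMB6 and PSMC6 had no CTCF peak in hypoxia.

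CTCF also lay at far ends. It did so at 11 of the 42 genes with a strand in both conditions (26.2%, against 15.6% of all such genes in hypoxia and 16.8% in normoxia). The 12 far-end peaks had a median fold of 66.2 in hypoxia and 40.3 in normoxia, and the start-side peaks 6.07 (34 peaks) and 9.19 (37 peaks), within the same lists.

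As the lists stand, condition-only CTCF calls were more frequent at proteasome genes than among all genes in both directions. Hypoxia-only peaks occurred at 7 genes (PSMD4, PSMB8, PSMC3, PSMD7, PSMD11, PSMB3 and PSMD10), 14.6% against 6.41%, and normoxia-only peaks at 8 (PSMB4, PSMB1, PSMB5, PSME2, PSMC6, PSMC1, PSMD11 and PSMC5), 16.7% against 10.1%. The hypoxia-only ones had folds of 2.51 to 4.61, at most above 10.2% of the list, led by PSMD7 (4.61), PSMD11 (3.77), PSMB3 (3.68), PSMD10 (3.45) and PSMC3 (3.35). The normoxia-only ones had 4.1 to 9.96, at most above 34.2% of the list, led by PSMB4 (9.96, chr1:151398370-151398689), PSMC5 (7.26), PSMB5 (5.07), PSME2 (4.83) and PSMC1 (4.43). With lists restricted to their upper 50% by score, the hypoxia-only count was 0 (against 0.237% of all genes) and the normoxia-only count 3 (6.25% against 5.21%). The normoxia-only share was also near that of all genes with lists of equal length (4.17% against 3.88%) and with 500 bp windows (8.33% against 7.31%). For hypoxia-only peaks these were 18.8% against 13% and 10.4% against 5.09%. Each share kept its side of all genes in 9 of 10 alternatives. One of these, a −log10 q of at least 5, could not change the counts. The lowest deposited CTCF values were already 5.09 and 5.0.

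At the level of genes, PSMB3, PSMC3, PSMD10 and PSMD4 had CTCF in hypoxia alone (8.33% against 2.86%), and PSMB1, PSMB5, PSMC1, PSMC6 and PSME2 in normoxia alone (10.4% against 5.19%). PSMC1 depends on the window: its hypoxia CTCF peak nearest to an end lay 1017 bp away, just outside it. The far end of PSMD7 was the one place where CTCF (chr16:74305418-74305713) and H3K27ac both had a hypoxia-only peak, 1 on top of the other.

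Combining the hypoxia lists, 25 genes had ZHX2, CTCF, H3K27ac and WT Flag, 52.1% against 40.5% of all protein-coding genes. Among genes with normoxia H3K27ac the order was the other way, 59.5% of proteasome genes against 62.7%. PSMA8 is an alpha variant of the testis and PSMB11 the beta subunit of the thymus. Neither had a ZHX2, CTCF or H3K27ac peak within 1 kb of an end in either condition, 4.17% against 22.7% of all genes. They had no Flag peak there either. Inside PSMA8, away from its ends, CTCF peaks had folds of 15.7 and 6.24 in hypoxia and 13.3 and 9.07 in normoxia.

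A few genes counted as empty had their peaks inside the annotated gene. RefSeq's outer start of PSMA1, an alpha subunit gene, lies 123276 bp upstream of the start that the promoter table uses. At the inner start ZHX2 had peaks of fold 5.26 in hypoxia (chr11:14520117-14520712, above 89.0% of the list) and 4.68 in normoxia, H3K27ac had 11.9 and 14.7, and Flag had 1648 bp in both forms. The CTCF and Flag peaks for which PSMA1 was counted are those at the outer end, which is also an end of PDE3B.

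PSMA6, an alpha gene, has its inner start 13759 bp into the annotated gene. There H3K27ac peaks of 6213 bp in hypoxia and 6379 bp in normoxia and a Flag peak of 2891 bp in both forms spanned the start. Hypoxia-only ZHX2 peaks of 2.61 and 3.06 lay 1139 bp before and 4988 bp after it, so the H3K27ac change counted for PSMA6 concerns a small upstream peak and not this start.

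PSMG4, a chaperone of core assembly, has its inner start 4543 bp in, with ZHX2 folds of 2.66 in hypoxia and 4.03 in normoxia, H3K27ac folds of 11.7 and 11.4, and a Flag peak of 1438 bp. Its normoxia-only call is thus a further, weaker peak near the outer end. PSMF1, the proteasome inhibitor gene, has the same start in both tables, but its ZHX2 peaks (5.87 in hypoxia, above 92.5% of the list, and 3.85 in normoxia), H3K27ac and Flag lay around 5268 bp inside the gene.

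**Figure D4:**
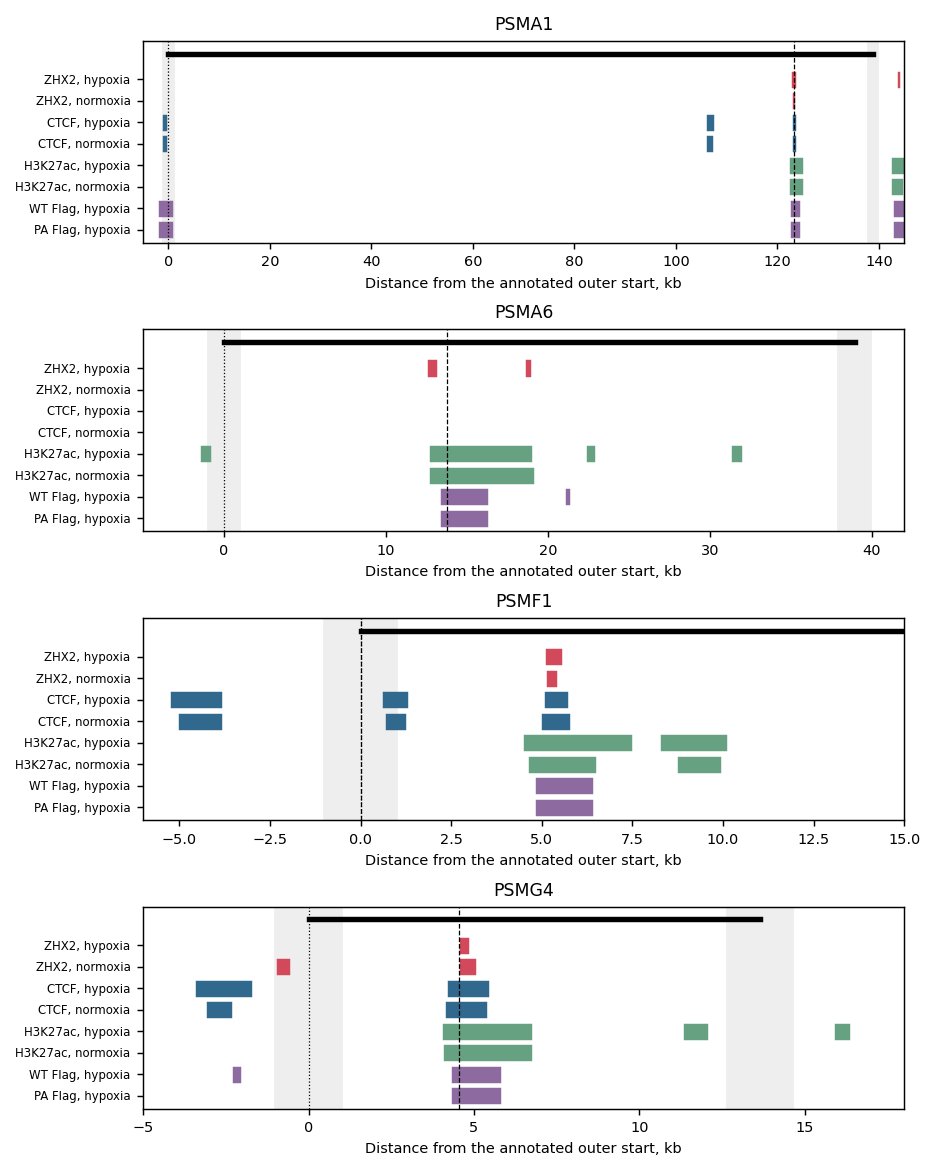
Peaks of the 8 lists (rows, coloured by antibody) along PSMA1, PSMA6, PSMF1 and PSMG4; the x axis is the distance from the annotated outer start in kb, the black bar the gene (cut at the panel edge for PSMF1), grey bands the windows counted, the dotted line the outer and the dashed line the promoter-table start. ZHX2, H3K27ac and Flag peaks cluster outside the grey bands, 123276 bp into PSMA1, near 5268 bp in PSMF1 and at 4543 bp in PSMG4.

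Counted within 1 kb of the promoter-table start, a choice made after seeing the data, hypoxia ZHX2 lay at 28 of 42 genes (66.7% against 56.1% of all protein-coding genes in the table) and normoxia ZHX2 at 17 (40.5% against 27.6%). H3K27ac lay at 39 in both conditions (92.9% against 64.8% and 64.1%), and Flag at 38 with both forms (90.5% against 59.0% for WT and 50.8% for PA). PSMD4, PSMB1, PSMG3, PSMB7, PSMB6 and PSMA7 were not matched in the table.

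Neighbouring genes share some of these sites. The hypoxia ZHX2 peak of 8 genes was also within 1 kb of an end of another protein-coding gene: PSMA2 with MRPL32, PSMA7 with SS18L1, PSMB1 with TBP, PSMB9 with TAP1, PSMD9 with HPD, PSMD13 with SIRT3, PSME4 with ACYP2 and PSMG1 with BRWD1. Which gene such a peak belongs to was not tested.

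Promoters of 42 proteasome genes were matched by gene identifier and chromosome in the RefSeq table. They were searched for 9 short motifs on both strands, over 250 bases before and 50 after the start. The antioxidant response element TGACNNNGC, the site class bound by NFE2L1 and NFE2L2, was found in 13 (31.0%), against 13.3% of all 35116 promoters of that length and 14.3% of the 15812 protein-coding ones, the shares given in this order for each motif. They included the lid genes PSMD3 and PSMD12, PSMC4, PSMD1, PSMB3, PSMB9, PSMG1 and PSMG2. The ETS motif CCGGAAG was found in 13 (31.0% against 10.3% and 14.2%), 6 of them lid genes. The NRF1 part GCGCATG was found in 5 (11.9% against 4.43% and 5.87%), namely PSMA2, PSMA3, PSMA4, PSMC4 and PSMD9.

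The SP1 motif GGGCGG was found in 28 (66.7% against 45.0% and 58.5%), CCAAT of NF-Y in 19 (45.2% against 34.6% and 36.3%) and ATGGCG of YY1 in 7 (16.7% against 10.7% and 14.3%). The core of the hypoxia response element, ACGTG, was found in 9 (21.4% against 21.4% and 23.7%), and the E-box CACGTG, which contains it, in 3 (7.14% against 7.26% and 8.87%). AGGNGGC, part of the CTCF motif, was found in 13 (31.0% against 35.9% and 42.1%) and can overlap the SP1 motif, as it does in PSMA6. The table held 26 genes with hypoxia ZHX2 within 1 kb of an annotated gene end and 16 without. This split is not by the start searched, where 28 of 42 genes had hypoxia ZHX2 within 1 kb. The 16 include PSMA1, PSMA6 and PSMG4, which had such a peak at that start. The 26 include PSMB10, counted for its far end. Motif counts split by ZHX2 at the start searched were not made. The antioxidant response element was found in 10 of the 26 and 3 of the 16, as was ETS, SP1 in 18 and 10, NF-Y in 13 and 6, and the CTCF part in 7 and 6. The core of the hypoxia response element was found in 6 and 3, YY1 in 5 and 2, the NRF1 part in 5 and 0, and the E-box in 3 and 0. Median GC content was 62.0% in the proteasome promoters and 62.7% in 15812 protein-coding ones. A match describes letters in the window and shows no binding.

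The hypoxia ZHX2 summit fell inside this 300-base window at 16 of those 26 genes.

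A further 33 genes that work with the proteasome but carry other symbols were listed as its partners, among them ubiquitin genes, shuttle receptors and transcription factors. ZHX2 in hypoxia lay at 27 of the 33 (81.8%) and in normoxia at 17 (51.5%), beside 56.3% and 29.7% of all protein-coding genes and 80.7% and 41.2% of those with normoxia H3K27ac, which 31 of the 33 carried. Hypoxia-only ZHX2 peaks lay at 19 of the 33 (57.6%), beside 29.2% of the subunit genes, 36.2% of all genes and 52.3% of the acetylated ones. In hypoxia the fold was 12.8 at MIDN, which encodes a factor for ubiquitin-independent delivery, and 8.49 at the shuttle receptor gene UBQLN2. PSMD8 was the one subunit gene with a fold above that of UBQLN2.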

How the data were processed

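The 28 samples were grouped by titles and antibody labels: 16 immunoprecipitated samples in 8 groups, and 12 without antibody, 4 of them titled Flag, whose data were not analysed here. The build GRCh38 (hg38) and the tools MACS2, Bowtie2 and cutadapt are named per the submitters' processing notes. Read depth, pooling of the 2 samples and use of the inputs are not stated there, and the precision of a single peak is therefore unknown. The authors deposited 1 peak list per group, with a score, a fold (a ratio over background) and a −log10 q for each ZHX2, CTCF and H3K27ac peak, and positions alone for Flag. The lowest deposited −log10 q was 1.3 for ZHX2, 5.09 and 5.0 for CTCF and 3.47 and 3.49 for H3K27ac.

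Gene ends came from RefSeq (GRCh38.p14), without strand; strand and starts came from the RefSeq promoter table. Peaks overlapping by at least 1 bp counted as shared. Summits (ZHX2, CTCF) or midpoints gave positions. Python 3.11.15 and pandas 2.3.3 were used, and the counting was checked on simulated data. No test was made, because no list holds values per sample. The proteasome genes, roles, partners, motifs and naming rule (up to 5 highest folds per list and condition-only class, 5 widest Flag peaks, every gene in 1 list of a pair alone) were chosen with earlier results of these data known. Details of individual inner starts, shared ends and the 10 acetylated genes without ZHX2 were chosen after values were seen. Some partner genes that the naming rule selects are not reported here.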

Additional observations from a re-analysis of the deposited data

How the results depend on the processing

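No paired analysis was possible, nor leaving out a replicate, because the deposited lists hold no values per sample. Under 7 or 8 alternatives per list, the share of proteasome genes with any peak stayed above that of all protein-coding genes, except for normoxia ZHX2 in the upper 50% of the lists (12.5% against 19.2%). For CTCF the −log10 q alternative could not change a count, as all deposited peaks reach it. For hypoxia-only ZHX2 peaks the share stayed below that of all genes in 7 of 10 alternatives. The exceptions were 39.6% against 33.0% once peaks with a −log10 q under 5 were dropped and 41.7% against 27.9% in the upper 50% of the lists. Both cuts also dropped normoxia peaks that had counted as overlap. The further exception was 43.8% against 39.4% with summits within 250 bp counted as shared. The share with ZHX2 in hypoxia alone kept its side in 4 of 10. The cause of the changes was not tested.

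The following counts moved by more than 1.5 times. Percentages are of proteasome genes against all protein-coding genes under the same setting. With 3 kb windows, 4 genes had normoxia-only ZHX2 (8.33% against 7.57%), 10 hypoxia-only H3K27ac (20.8% against 8.46%) and 11 WT-only Flag (22.9% against 25%). CTCF lay at 2 in hypoxia alone (4.17% against 2.03%) and at 2 in normoxia alone (4.17% against 5.02%). H3K27ac lay at 2 in hypoxia alone (4.17% against 1.68%), and WT Flag alone at 1 (2.08% against 9.38%). With 500 bp windows, 0 had normoxia-only ZHX2 (against 2.93%) or ZHX2 in normoxia alone (against 1.86%). Normoxia-only CTCF lay at 4 (8.33% against 7.31%), and CTCF in normoxia alone at 3 (6.25% against 5.11%). Hypoxia-only H3K27ac lay at 2 (4.17% against 2.49%), with 0 alone (against 1.51%), and WT-only Flag peaks at 2 (4.17% against 11.4%). At the start-side end alone, 1 gene had hypoxia-only H3K27ac (2.38% against 1.08%). With sharing by 50% of the shorter peak, 2 genes had normoxia-only ZHX2 (4.17% against 5.4%). With sharing by summits or midpoints within 250 bp, 8 had normoxia-only ZHX2 (16.7% against 9.53%) and 13 normoxia-only CTCF (27.1% against 14.7%). Hypoxia-only H3K27ac then lay at 18 (37.5% against 21.2%) and normoxia-only H3K27ac at 13 (27.1% against 19.2%).

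In the upper 50% of each list, ZHX2 in normoxia lay at 6 genes (12.5% against 19.2%). CTCF lay at 17 in hypoxia (35.4% against 29.4%) and 19 in normoxia (39.6% against 33%). There 0 genes had normoxia-only ZHX2 (against 3.42%), hypoxia-only CTCF (against 0.237%), hypoxia-only H3K27ac (against 2%) or PA-only Flag (against 0.0252%). Normoxia-only CTCF lay at 3 (6.25% against 5.21%). ZHX2 in normoxia alone (against 2.32%), CTCF in hypoxia alone (against 0.908%) and H3K27ac in hypoxia alone (against 1.61%) each lay at 0. CTCF in normoxia alone lay at 2 (4.17% against 4.54%). WT Flag alone lay at 5 (10.4% against 15.9%), whose shared peaks fell below the PA width cut. Without peaks of a −log10 q under 5, 13 genes had ZHX2 in normoxia (27.1% against 22.4%). Normoxia-only ZHX2 (against 3.5%) and ZHX2 in normoxia alone (against 2%) lay at 0. With lists of equal length, 9 had hypoxia-only ZHX2 (18.8% against 18.9%). Normoxia-only ZHX2 lay at 4 (8.33% against 8.79%) and ZHX2 in normoxia alone at 4 (8.33% against 5.96%). Normoxia-only CTCF lay at 2 (4.17% against 3.88%) and CTCF in normoxia alone at 1 (2.08% against 2.27%). CTCF in hypoxia alone lay at 7 (14.6% against 7.28%). WT-only Flag lay at 1 (2.08% against 6.08%) and PA alone at 1 (2.08% against 2%). Around the promoter-table start, added after seeing the data, 0 genes had normoxia-only ZHX2 by peak (against 3.12%) or alone (against 1.56%). The same held for hypoxia-only H3K27ac by peak (against 1.08%) or alone (against 1.18%). Anywhere in the gene, also added later, 3 had normoxia-only ZHX2 (6.25% against 12.7%), with 0 alone (against 2.21%). Hypoxia-only H3K27ac lay at 15 (31.2% against 20.5%), with 0 alone (against 1.78%), and normoxia-only H3K27ac at 3 (6.25% against 10.1%). WT-only Flag peaks lay at 9 (18.8% against 31.4%). Among all annotated genes the share with a hypoxia ZHX2 peak was 28.0%.

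Thresholds differ between antibodies, and list lengths within a pair, so counts are not compared between antibodies.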
